A study of Mus musculus with 14 samples.

Results

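The 47 genes described here encode the proteins that copy DNA in S phase of the cell cycle, from the licensing of replication origins to the packing of new DNA into chromatin. They were taken as a list of gene symbols chosen by function, matched to the Ensembl identifiers of the deposited tables, and are 47 of the 22598 genes in each table. All 47 had reads in every library, and all 47 passed the filter on low counts among 11591 genes tested. In the day 7 libraries alone 45 passed it, so E2f8 and Gins1 entered the tests through the day 14 libraries, where they were high.

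As background, a cell that prepares to divide loads the ring-shaped MCM helicase onto origins with the help of ORC, CDC6 and CDT1. In S phase CDC45, the GINS complex and MCM10 turn the loaded ring into an active helicase, primase and DNA polymerases copy the strands, and the sliding clamp PCNA, placed by the clamp loader RFC, holds the polymerases on the template. E2F transcription factors are known activators of many of these genes. Naive T cells are resting cells, and they switch this machinery on when activation through the antigen receptor makes them divide.

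The data are 14 RNA sequencing libraries of mouse CD4+ T cells in culture. Naive TCRb+ cells were sorted from the spleens of C57BL/6J mice and grown under conditions that favour the Th2 type, the helper cells known from allergy and worm infection. There were 4 wild-type and 4 knockout libraries of day 7, and 3 wild-type and 3 knockout libraries of day 14. The knockout targets Ago1, Ago3 and Ago4 together, per the labels; these genes encode Argonaute proteins, which bind microRNAs, and Ago2 is not among the targets. The series text also gives the later time with another number of days, and a day 0 time it names is not analysed here. The sources give neither the ages of the mice nor the structure of the knockout alleles. Littermates are mentioned, but whether replicate libraries stem from different mice or cultures is not said, so p-values measure only the spread between these libraries, which may be technical. In RNA from whole cultures, more cells in S phase and more RNA per cell cannot be told apart.

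Total counts ran from 23326248 to 35803197 per library. Levels are given as CPM, the counts of a gene scaled to a common library total after TMM scaling. Genes were tested with edgeR (quasi-likelihood), p-values were adjusted by the Benjamini-Hochberg method over all genes tested, and a gene was called where its adjusted p was under 0.05. Ago1 stood at 3.68, 4.59, 4.34 and 5.35 CPM in wild type at day 7 and at 3.72, 3.21 and 2.07 CPM in wild type at day 14. In the knockout it was at 0 in 6 of 7 libraries and at 0.0603 CPM in library 3 of day 14. Ago3 stood at 2.05 to 4.43 CPM in wild type and 1.21 to 2.16 CPM in the knockout, and Ago4 at 0.358 to 2.81 and 2.38 to 4.76 CPM. With all libraries neither had an adjusted p under the threshold between genotypes. Ago3 was lower in the knockout without overlap at day 7 (log2 fold change -0.88) and day 14 (-1.01), beside 12.9% and 5.25% of all genes tested. Ago4 was higher without overlap at day 7 (2.36), beside 9.27% of all genes. Without wild-type library 3 of day 14, the day 14 value of Ago3 was -0.55, and Ago4 was called higher in the knockout at both days. Which exons these alleles lack is not given, so their counts check no label. The T cell genes Cd3e, Cd4 and Gata3 were each above 145 CPM in all libraries. Sequencing lane identifiers fall into 2 series, one with all knockout libraries of day 7, wild-type libraries 2 to 4 of day 7 and wild-type library 2 of day 14, the other with the remaining libraries. In the knockout, day and lane series therefore cannot be told apart within the genotype. Wild-type library 3 of day 14 stood apart from libraries 1 and 2: it was above both for 41 of the 47 genes (87.2%), against 43.6% of all genes tested, and results that rest on it are given with and without it. As it was singled out by its levels of these same genes, fits without it describe the other libraries and are no separate test.

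**Figure D1:**
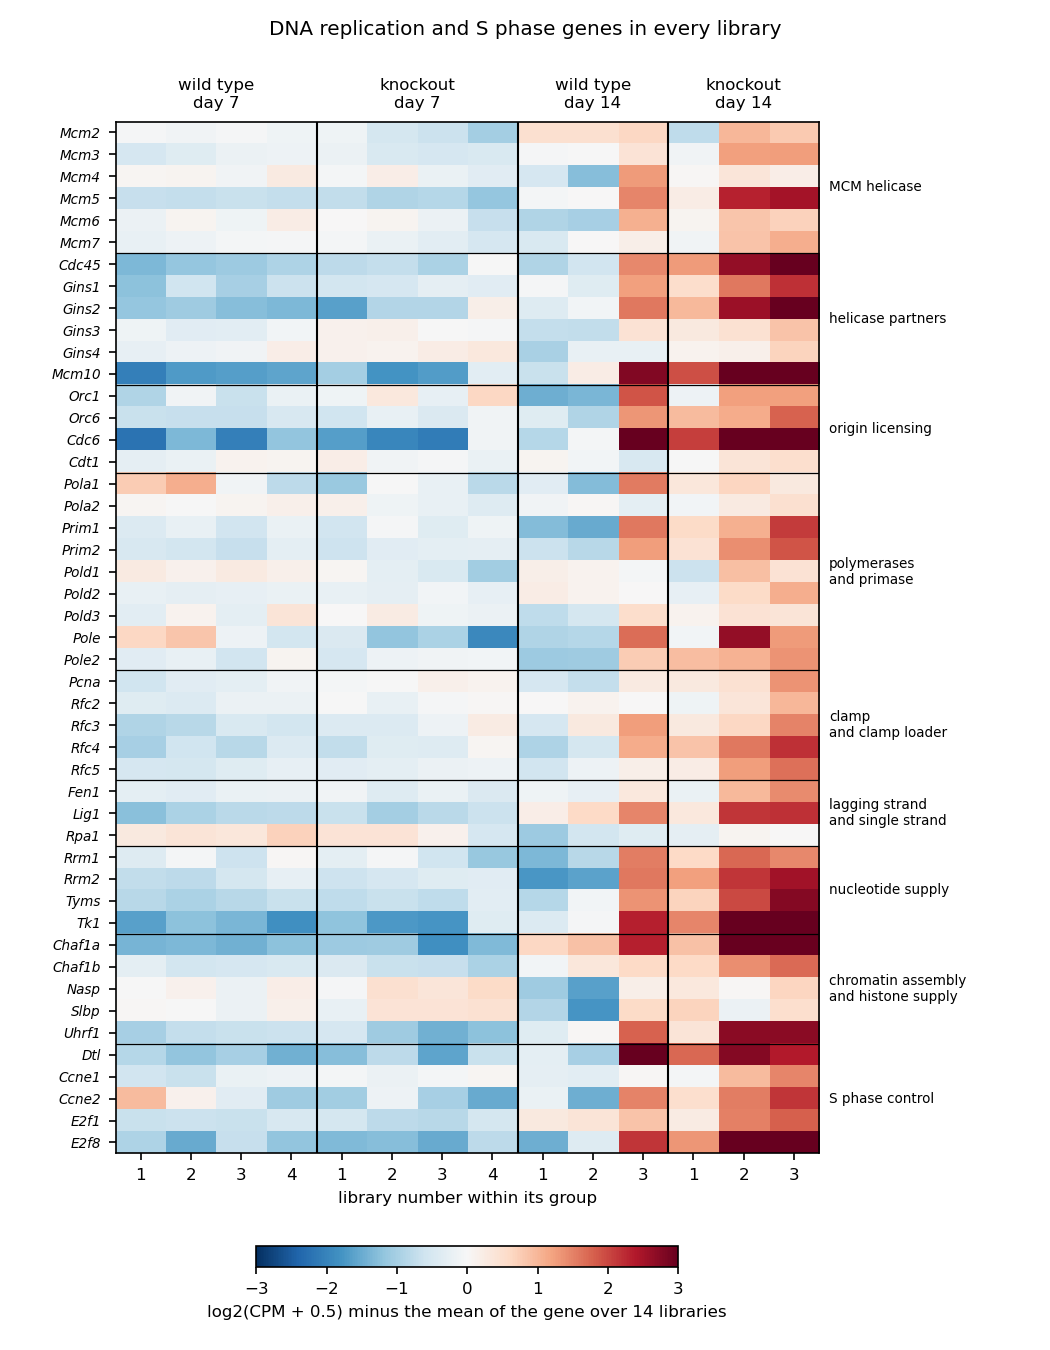
Level of the 47 genes (rows, by role) in each of the 14 libraries (columns), as log2(CPM + 0.5) minus the gene's mean over the libraries; colours end at 3 and -3. Red fills most of the columns of knockout libraries 2 and 3 and wild-type library 3 of day 14, while wild-type libraries 1 and 2 of day 14 resemble day 7 in most rows.

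At day 7 the 47 genes spanned a wide range of levels. Levels are compared between genes only as CPM per kb of coding length, here in wild type at day 7. The most abundant was Rpa1, a subunit of the complex that coats single-stranded DNA, at 249.5, and the least abundant was E2f8, a repressor of the E2F family that acts late in S phase, at 0.124. The 6 subunits of the MCM ring, which are present in equal number in the assembled helicase, ran from 33.7 (Mcm5) and 43.9 (Mcm4) through 98.1 (Mcm7), 119 (Mcm6) and 125 (Mcm3) to 132 (Mcm2). The 4 subunits of the GINS complex lay much further apart, with Gins1 at 0.327, Gins2 at 1.24, Gins3 at 6.24 and Gins4 at 75.1. The catalytic subunits of polymerase alpha and epsilon were low, at 1.28 (Pola1) and 1.08 (Pole), beside 80.3 for Pola2, the second subunit of polymerase alpha. In the knockout at day 14 the same measure was 5.46 for Gins1, 29.1 for Gins2, 11.1 for Gins3 and 99.4 for Gins4, and 215 for Mcm5 beside 48.0 for Mcm4. Pcna, at 12.4 in wild type at day 7, has 2 named pseudogenes, and Tyms and Nasp have 1 each, so their counts are uncertain. Reads of Mcm7, Cdc45, Gins2, Orc6, Rfc2, Rfc4, Rfc5, Fen1, Lig1, Tk1, Chaf1a and Ccne2 could come in part from a gene on the other strand, and those of Cdt1 and Pole2 from a predicted gene on the same strand, since it is not known whether the counting used strand.

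The promoters of the genes held the E2F motif more often than promoters at large. In the RefSeq table for GRCm38.p6, 45 promoters of 39 of the genes were found, each from 250 bases before to 50 bases after the start; Mcm4, Gins1, Gins2, Gins4, Prim2, Pole, Rfc2 and Ccne2 were not matched. The motif was searched on both strands as TTCCCGC and its 3 variants in which the third and the fourth base are C or G, and matches may overlap. It was found in 27 of 45 promoters (60.0%), against 9.57% of 32851 promoters in the table. The median GC content was 61.3% for these promoters and 52.7% for all, and among the 8610 promoters with at least that GC content 20.6% held the motif. The CCAAT box was found in 57.8% of the promoters and in 37.4% of all. The 120 bases before the start are shown on the strand of the gene, with E2F matches in capitals, for Chaf1a, higher at day 14 in both genotypes with and without wild-type library 3, for Dtl and E2f8, higher in the knockout in both fits and in wild type only with library 3, for Mcm6, where matches on both strands overlap at 2 places, and for Rfc5, called between genotypes at day 14, and Rpa1, lower at day 14 in wild type, which had no match. Of the 24 genes with a match 15 were higher at day 14 in the knockout, and of the 15 genes with a promoter but no match 10 were, beside 10.5% of all genes tested. All genes tested were not split by the motif, and a part of the motif in these calls was not tested.
Chaf1a, chr17:56040296-56040415, plus strand: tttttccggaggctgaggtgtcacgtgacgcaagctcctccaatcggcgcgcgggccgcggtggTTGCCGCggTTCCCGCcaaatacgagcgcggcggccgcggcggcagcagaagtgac
Dtl, chr1:191575545-191575664, minus strand: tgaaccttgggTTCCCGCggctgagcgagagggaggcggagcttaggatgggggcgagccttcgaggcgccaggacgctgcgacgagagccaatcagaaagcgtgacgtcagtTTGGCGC
E2f8, chr7:48881597-48881716, minus strand: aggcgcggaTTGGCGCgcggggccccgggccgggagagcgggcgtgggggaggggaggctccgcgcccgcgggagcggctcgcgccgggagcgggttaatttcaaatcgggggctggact
Mcm6, chr1:128359706-128359825, minus strand: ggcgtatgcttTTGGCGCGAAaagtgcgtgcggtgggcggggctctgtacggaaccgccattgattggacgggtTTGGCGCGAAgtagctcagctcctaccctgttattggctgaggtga
Rfc5, chr5:117389024-117389143, minus strand: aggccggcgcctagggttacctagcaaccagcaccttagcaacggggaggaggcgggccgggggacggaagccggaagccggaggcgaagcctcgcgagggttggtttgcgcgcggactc
Rpa1, chr11:75348384-75348503, minus strand: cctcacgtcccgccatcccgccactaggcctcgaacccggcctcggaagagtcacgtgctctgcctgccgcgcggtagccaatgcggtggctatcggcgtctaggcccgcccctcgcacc

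The comparison at day 7 asked whether the Ago1, Ago3 and Ago4 knockout alters these genes after a week of culture. None of the 47 genes was called in edgeR, where 0.0518% of all genes tested were called higher and 0.0431% lower. DESeq2 called 0 as well (2.39% of all genes higher, 2.03% lower), and in edgeR 1 gene, Pold1, the catalytic subunit of polymerase delta, had an unadjusted p under 0.05 (12.1% of all genes in its direction). Pold1 stood at 264, 239.7, 262 and 244 CPM in wild type and at 226, 177, 159 and 106 CPM in the knockout. Its groups did not overlap, and its log2 fold change was -0.59 ± 0.27 (SE; adjusted p = 0.21). The median log2 fold change of the 47 genes was 0.079, beside -0.0115 over all genes tested.

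Groups without overlap were found for 4 genes with higher and 3 with lower levels in the knockout at day 7, beside 9.27% and 12.9% of all genes tested. The higher ones were Pcna, Gins1, Gins3 and Rfc3, the lower ones Mcm2, Mcm5 and Pold1. Pcna stood at 7.99, 9.57, 10.1 and 11.5 CPM in wild type and at 11.8, 12.2, 13.9 and 13.4 CPM in the knockout (log2 fold change 0.39 ± 0.28, adjusted p = 0.41). Mcm2 stood at 368, 349.5, 367 and 347 CPM in wild type, and at 347 (library 1), 264, 243 and 185 CPM in the knockout (-0.46 ± 0.29, adjusted p = 0.336). The Mcm2 values of library 1 of the knockout and library 4 of wild type nearly touch. Pole, the catalytic subunit of polymerase epsilon, had the lowest log2 fold change, -1.47 ± 0.70 (adjusted p = 0.218), with 3.89 to 11.1 CPM in wild type and 1.195 to 4.30 CPM in the knockout. Knockout library 4 was the highest of the 8 day 7 libraries for 19 of the 47 genes (40.4%, against 32.4% of all genes tested) and the lowest for 13 (27.7%, against 30.9%). Its higher genes included the licensing factor Cdc6 at 3.14 CPM, against 0.334 to 1.21 CPM in the other 7 libraries, and its lower ones included 5 of the 6 MCM ring subunits. Voom with sample weights called 3 genes higher and 4 lower, beside 19.9% and 23.6% of all genes tested.

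From day 7 to day 14 the knockout cultures held most of the calls: 30 of the 47 genes were higher at day 14 and 0 lower (edgeR), beside 10.5% of all genes tested called higher and 4.92% called lower. The 30 include E2f8 and Gins1, which passed the filter only through the day 14 libraries. The median log2 fold change was 1.41, against 0.021 over all genes. The groups did not overlap for 30 genes with higher and 0 with lower levels, against 13.6% and 10.2% of all genes. These are not the same 30 genes: Mcm2, Mcm7, Pold2, Fen1 and Ccne1 were called although their groups overlapped. All genes of nucleotide supply (4 of 4) and of S phase control (5 of 5) were called higher. Calls were made for 4 of 6 MCM subunits, 4 of 6 partners of the helicase, 2 of 4 licensing genes, 4 of 9 genes of polymerases and primase, 2 of 5 of the clamp and its loader, 2 of 3 of lagging and single strands and 3 of 5 of chromatin assembly and histone supply. Changes were larger among genes of low level: the 23 genes with the lower mean over all libraries (1.13 to 38.3 CPM) had a median of 2.69, with 18 higher, and the other 24 (38.4 to 410 CPM) a median of 0.87, with 12 higher.

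Single values in parentheses are log2 fold changes. Cdc45, part of the active helicase, stood at 7.49, 7.87, 6.67 and 13.2 CPM in the knockout at day 7 and at 32.9, 85.3 and 115 CPM at day 14. All day 14 libraries were above all day 7 libraries, and library 1 was the lowest of the day 14 group (log2 fold change 3.14 ± 0.54, adjusted p = 0.00132). Mcm5 rose from 71.9, 63.9, 66.5 and 53.4 CPM to 140.2, 603 and 680.5 CPM (2.89 ± 0.45, adjusted p = 0.000716). Mcm2 (1.07), Mcm3 (1.31) and Mcm7 (0.96) were called higher too, while Mcm4 (0.29 ± 0.42, adjusted p = 0.731) and Mcm6 (0.73 ± 0.40, adjusted p = 0.275) were not called. Mcm2 stood at 224 CPM in library 1 of day 14, against 347, 264, 243 and 185 CPM at day 7. Its call was lost in 5 of the 14 fits that leave out 1 library. Among the partners of the ring, Mcm10 (5.07), Gins2 (3.71) and Gins1 (2.88) rose, and Gins3 (0.53) and Gins4 (0.14) were not called. Of the licensing factors, Cdc6 rose from 0.407 to 3.14 CPM at day 7 to 16.01, 64.1 and 77.5 CPM at day 14 (5.48 ± 1.04, adjusted p = 0.00272). Orc6, a subunit of the origin recognition complex, rose too (1.72), and Cdt1, the factor that brings MCM to origins, was not called (0.33 ± 0.19, adjusted p = 0.3).

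In DNA synthesis, Pole (2.92), Prim2 (1.79), Pole2 (1.36) and Pold2 (0.78) rose, and the 3 subunits of polymerase delta listed ran only from 0.31 to 0.78. Lig1, the ligase that joins Okazaki fragments, rose from 28.0, 21.5, 25.4 and 28.4 CPM to 55.1, 199.7 and 205 CPM (2.57 ± 0.39, adjusted p = 0.000596), and Fen1, the nuclease that trims them, by 1.15. Rpa1 was not called (-0.20 ± 0.23, adjusted p = 0.643). Of the clamp loader, Rfc4 (2.02) and Rfc5 (1.41) rose, while Rfc2 (0.55), Rfc3 (1.07) and the clamp gene Pcna (0.75 ± 0.30, adjusted p = 0.113) were not called. The thymidine kinase gene Tk1 stood at 0.731, 0.372, 0.345 and 1.73 CPM at day 7 and at 7.45, 31.0 and 56.0 CPM at day 14 (5.33 ± 0.87, adjusted p = 0.000982). Tyms, the thymidylate synthase gene (2.69), and Rrm1 and Rrm2 for ribonucleotide reductase (1.80 and 2.53) rose with it.

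The smallest adjusted p-values belonged to chromatin assembly factor. Chaf1a, its large subunit, stood at 7.27, 7.43, 4.17 and 6.11 CPM at day 7 and at 30.1, 139 and 129 CPM at day 14 in the knockout (4.00 ± 0.50, adjusted p = 0.000178). Chaf1b, a smaller subunit, stood at 57.9, 48.8, 48.3 and 39.98 CPM and at 119, 204 and 254 CPM (1.98 ± 0.24, adjusted p = 0.000148). Uhrf1, which guides the copying of DNA methylation, rose by 3.31 ± 0.55 (adjusted p = 0.00112). The histone chaperone gene Nasp (-0.01 ± 0.34, adjusted p = 0.993) and Slbp, which binds the stem-loop of histone mRNA (0.09 ± 0.40, adjusted p = 0.926), did not pass. E2f1, an activator of S phase genes, stood at 21.2, 17.9, 17.3 and 21.4 CPM and at 37.1, 88.9 and 109 CPM (2.01 ± 0.29, adjusted p = 0.000431). E2f8 had the highest log2 fold change, 6.15 ± 1.11, from at most 0.487 CPM to 3.72, 26.7 and 19.9 CPM (adjusted p = 0.00197). It was tested only because its day 14 levels passed the filter, so its call is no separate support for a rise. The cyclin E genes Ccne1 (0.97) and Ccne2 (2.75) and Dtl (4.18), whose product marks CDT1 for destruction, rose as well. Knockout library 1 was the lowest day 14 library of its genotype for 44 of the 47 genes (93.6%, against 38.7% of all genes tested). Without wild-type library 3 of day 14, which is not among the libraries compared here, 34 were called higher and 0 lower (13.1% and 7.5% of all genes). Of the 30 calls 17 held when any 1 of the 14 libraries was left out, and without knockout library 3 of day 14 there were 18 calls (6.54% of all genes higher). With lane series as a term 4 genes were called higher and 0 lower (2.27% and 0.923% of all genes), Lig1, Chaf1a, Chaf1b and E2f1; that term rests on the wild-type libraries, and in that fit without wild-type library 3 of day 14 22 were called higher and 0 lower, beside 5.0% and 1.86% of all genes.

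**Figure D2:**
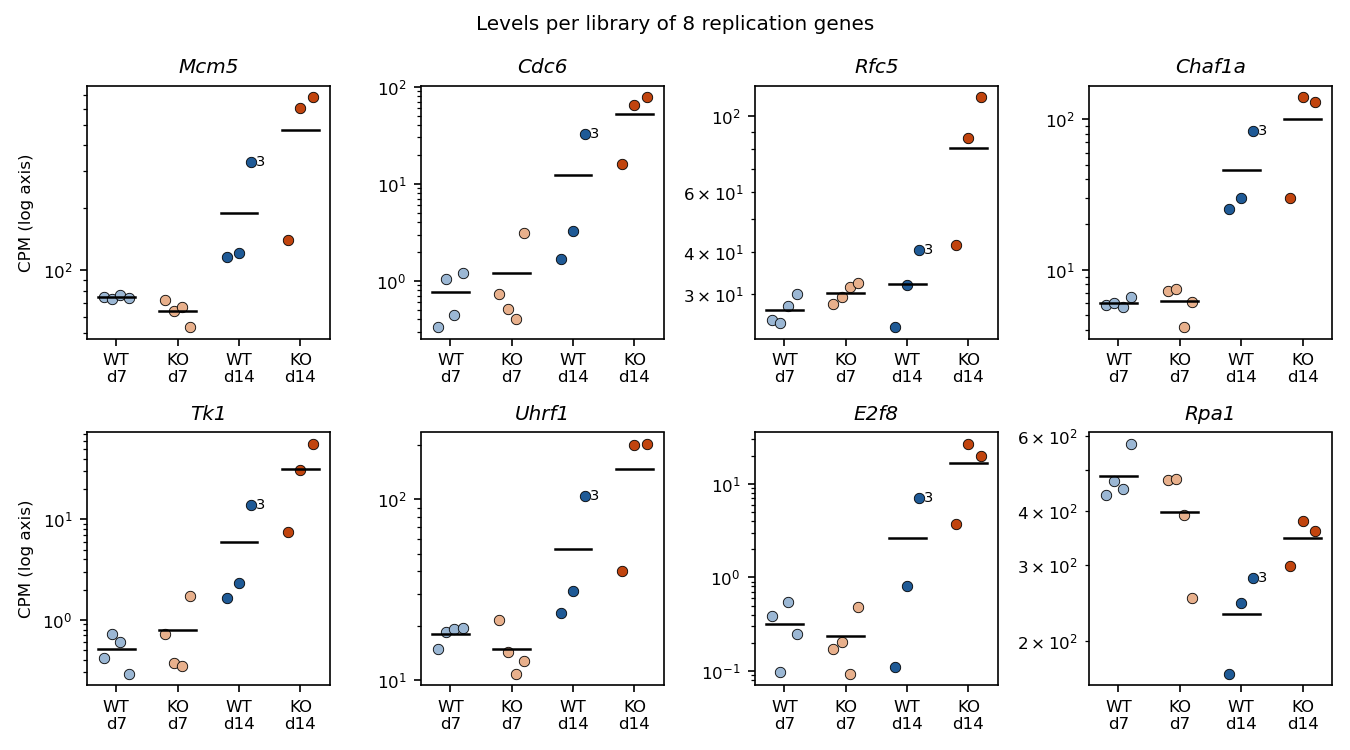
CPM (log axis) of 8 of the genes in each library (points) and the group mean (line), for wild type (WT) and knockout (KO) at day 7 (d7) and day 14 (d14); wild-type library 3 of day 14 is numbered. Library 3 lies above wild-type libraries 1 and 2 in all 8 panels, by a wide step in Mcm5, Cdc6, Chaf1a, Tk1, Uhrf1 and E2f8 and by a small one in Rfc5 and Rpa1.

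In wild type 14 of the 47 genes were higher at day 14 than at day 7 and 1 was lower, beside 13.2% and 7.33% of all genes tested called higher and lower. The median was 0.59, against -0.0020 over all genes, and the groups did not overlap for 16 genes with higher and 1 with lower levels at day 14 (17.2% and 13.8% of all genes). Chaf1a rose from 5.85, 6.02, 5.62 and 6.65 CPM to 25.3, 30.1 and 83.0 CPM (2.93 ± 0.49, adjusted p = 0.000744). Lig1 rose from 18.4, 22.7, 25.0 and 25.6 CPM to 51.5, 68.0 and 124 CPM (1.82 ± 0.38, adjusted p = 0.00375). For both genes all 3 day 14 libraries were above day 7, with library 3 the highest. E2f1 (1.16 ± 0.29, adjusted p = 0.0106) and Mcm10 (4.36 ± 0.87, adjusted p = 0.00269) rose too. Rpa1 fell, from 437, 469.6, 450.3 and 574 CPM to 168, 245 and 279.5 CPM (-1.06 ± 0.24, adjusted p = 0.00521), without overlap. These 5 calls held when any 1 of the 14 libraries was left out and with lane series as a term, where they were the only ones (10.8% of all genes higher, 7.7% lower). The other 10 genes called higher were Mcm5, Cdc45, Gins1, Gins2, Cdc6, Rfc3, Tk1, Chaf1b, Dtl and E2f8, with log2 fold changes from 0.78 to 4.05. Of these, Gins1 and E2f8 passed the filter only through the day 14 libraries. The number called higher was 8, 9, 7 and 8 without wild-type library 1, 2, 3 or 4 of day 7, beside 9.61%, 9.8%, 10.6% and 10.6% of all genes. E2f8 stood at 0.112, 0.802 and 7.02 CPM at day 14, against 0.0976 to 0.543 CPM at day 7, and its call was lost in 11 of 14 such fits.

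Without wild-type library 3 of day 14 the picture in wild type changed: 4 genes were higher and 8 lower, beside 14.4% and 15.7% of all genes tested, and the median was 0.056. The share called lower was thus near that of all genes, and the share called higher was below it. Chaf1a (2.20), Mcm10 (2.46), Lig1 (1.38) and E2f1 (0.96) stayed higher in libraries 1 and 2. The 8 lower genes were Nasp, Rpa1, Slbp, Mcm4, Mcm6, Rrm2, Pole2 and Prim1. Nasp stood at 51.0, 55.8, 45.2 and 59.0 CPM at day 7 and at 24.4 and 16.2 CPM in libraries 1 and 2 of day 14, against 57.9 CPM in library 3 (-1.38 ± 0.25 without library 3, adjusted p = 0.00188). Rrm2 stood at 25.4, 24.8, 29.8 and 35.9 CPM at day 7 and at 12.5 and 13.9 CPM in libraries 1 and 2, against 129 CPM in library 3 (-1.13 ± 0.30 without library 3, adjusted p = 0.0133). For both genes libraries 1 and 2 were below, and library 3 within or above, the day 7 values. With all libraries the 14 genes higher in wild type and the 30 higher in the knockout shared 13, which is 92.9% of the first list and 43.3% of the second; Rfc3 was called in wild type only in that fit, and its adjusted p in the knockout was 0.0696. The 2 comparisons share no library, but they share an estimate of the spread. Without library 3 the 4 and 34 genes shared 4, all of the first list and 11.8% of the second. Shared calls were not counted over all genes tested, so these overlaps have no background beside them.

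**Figure D3:**
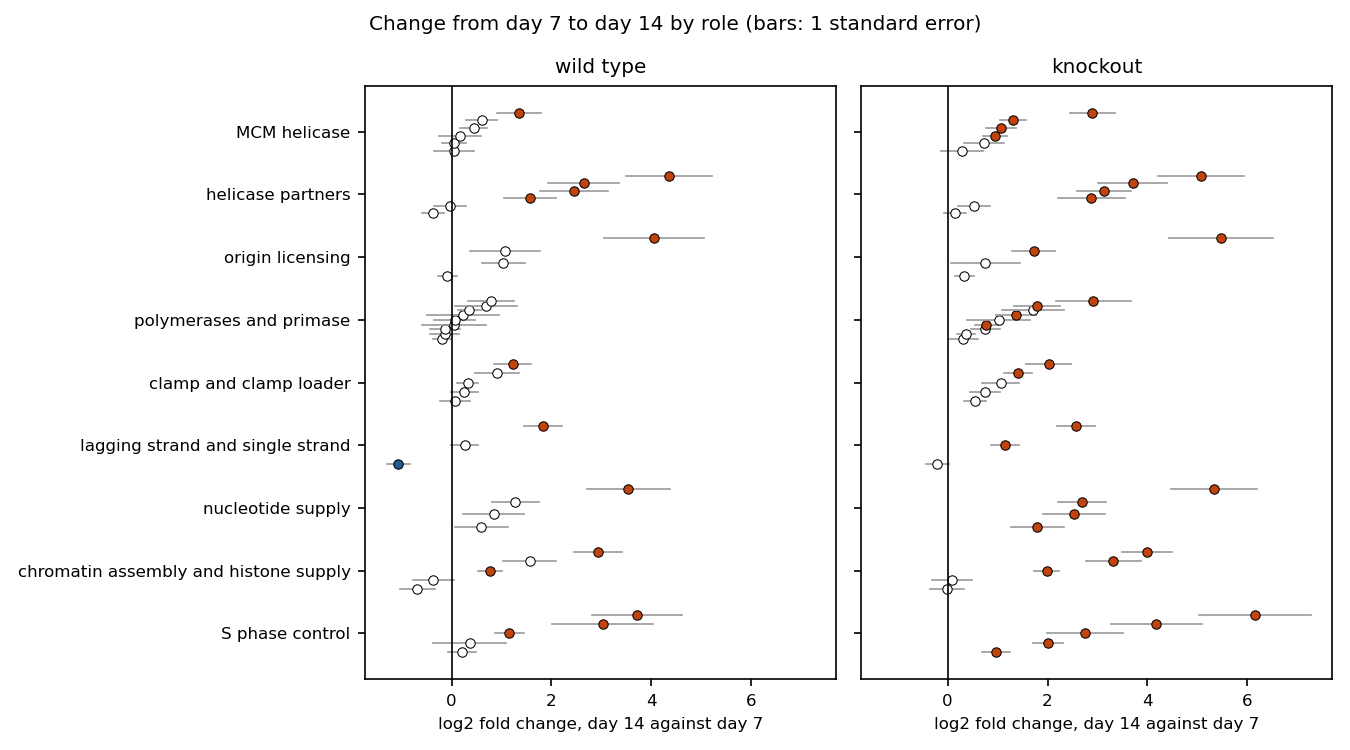
Log2 fold change of day 14 against day 7 (horizontal axis) of each gene, by role, in wild type (left) and knockout (right), from all libraries; bars are 1 standard error, and filled points passed the adjusted p threshold (red higher, blue lower). The 14 red points of wild type end at 4.36 and the 30 of the knockout at 6.15; the blue point is Rpa1.

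The comparison of genotypes at day 14 asked the same of older cultures. With all libraries 1 of the 47 genes was called higher in the knockout and 0 lower, beside 0.845% and 0.578% of all genes tested. That gene was Rfc5, a subunit of the clamp loader, at 24.1, 32.1 and 40.6 CPM in wild type and 41.9, 86.3 and 113 CPM in the knockout (1.32 ± 0.30, adjusted p = 0.0447). Its groups do not overlap, although the highest wild-type and the lowest knockout library nearly meet. The call was lost in 10 of the 14 fits that leave out 1 library, with adjusted p up to 0.217 and log2 fold changes from 0.99 to 1.63. Among the 47 genes 44 had a log2 fold change above 0, from -0.04 (Mcm4) to 2.66 (E2f8), with a median of 0.98 beside 0.0085 over all genes, and 28 had an unadjusted p under 0.05 with higher levels (11.4% of all genes). Groups did not overlap for 5 genes with higher levels in the knockout, Rfc5, Pole2, Pcna, Gins4 and Rpa1, and for 0 with lower levels (9.71% and 5.25% of all genes), which is a share near the background for the higher ones.

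Pole2, a small subunit of polymerase epsilon, stood at 4.09, 4.18 and 16.01 CPM in wild type and 18.2, 19.7 and 24.3 CPM in the knockout (1.35 ± 0.44, adjusted p = 0.116). Pcna stood at 8.51, 7.28 and 15.0 CPM and at 15.3, 17.2 and 32.2 CPM (1.07 ± 0.33, adjusted p = 0.0954). In both genes wild-type library 3 lay next to the lowest knockout library. Cdc45 stood at 6.92, 8.75 and 36.8 CPM in wild type and at 32.9, 85.3 and 115 CPM in the knockout, so that library 3 passed the lowest knockout library (2.15 ± 0.58, adjusted p = 0.0702). Library 3 of wild type was above at least 1 knockout library for 40 of the 47 genes (85.1%, against 70.8% of all genes tested). It was above all 3 for 6 genes, Mcm4, Mcm6, Orc1, Pola1, Pold3 and Dtl. That is 12.8%, less than the 28.7% of all genes tested. Dtl stood at 20.1 CPM in it, at 1.34 and 0.635 CPM in wild-type libraries 1 and 2, and at 6.88, 14.7 and 11.2 CPM in the knockout. DESeq2 called 11 genes higher and 0 lower (4.67% and 3.9% of all genes): Cdc45, Gins2, Gins4, Pole2, Pcna, Rfc4, Rfc5, Tyms, Tk1, Chaf1b and Ccne1. With lane series as a term edgeR called 0 (0.449% of all genes higher, 0.233% lower). Leaving out wild-type library 2 puts all remaining day 14 libraries in 1 lane series, and that fit called 0 with a median of 0.76. Day 7 libraries of both series still shared in its estimate of the spread. Its wild-type group of day 14 was libraries 1 and 3, which lie far apart, so the 0 calls say little about lane.

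Without wild-type library 3, 37 of the 47 genes were higher in the knockout at day 14 and 0 lower, beside 12.6% and 9.89% of all genes tested, and the median was 1.63. Library 3 was left out for its high levels of these same genes, which raises such counts. Only wild-type libraries 1 and 2 remain, so the counts and p-values of this fit are descriptive. All 6 partners of the helicase, all 4 genes of nucleotide supply and all 5 of chromatin assembly and histone supply were called in this fit. Rrm2 had the smallest adjusted p, at 12.5 and 13.9 CPM in wild-type libraries 1 and 2 and 101, 191 and 248.8 CPM in the knockout (3.77 ± 0.35, adjusted p = 0.000164). Orc1, the largest subunit of the origin recognition complex, stood at 2.01 and 2.17 CPM in libraries 1 and 2, and at 5.73, 15.7 and 15.7 CPM in the knockout (2.56 ± 0.49, adjusted p = 0.00517). With library 3, at 24.9 CPM, its log2 fold change was 0.35 ± 0.75 (adjusted p = 0.821). The 10 genes not called even so were Mcm2, Cdt1, Pola1, Pola2, Pold1, Pold2, Rfc2, Rfc3, Rpa1 and E2f1, among them the abundant Mcm2 (0.05 ± 0.38) and Pold1 (0.23 ± 0.36). All 3 knockout libraries were above both remaining wild-type libraries for 35 of the 47 genes (74.5%), against 24.9% of all genes tested. Without knockout library 1 of day 14, and with wild-type library 3 kept, 12 genes were called higher and 0 lower, beside 1.95% and 0.5% of all genes. Knockout library 1 was the lowest of its group for 44 of the 47 genes, so leaving it out raises such counts too. That fit is likewise descriptive. Voom with sample weights, which gave wild-type library 3 the lowest weight of all libraries (0.148), called 37 higher and 0 lower, beside 9.59% and 7.07% of all genes.

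**Figure D4:**
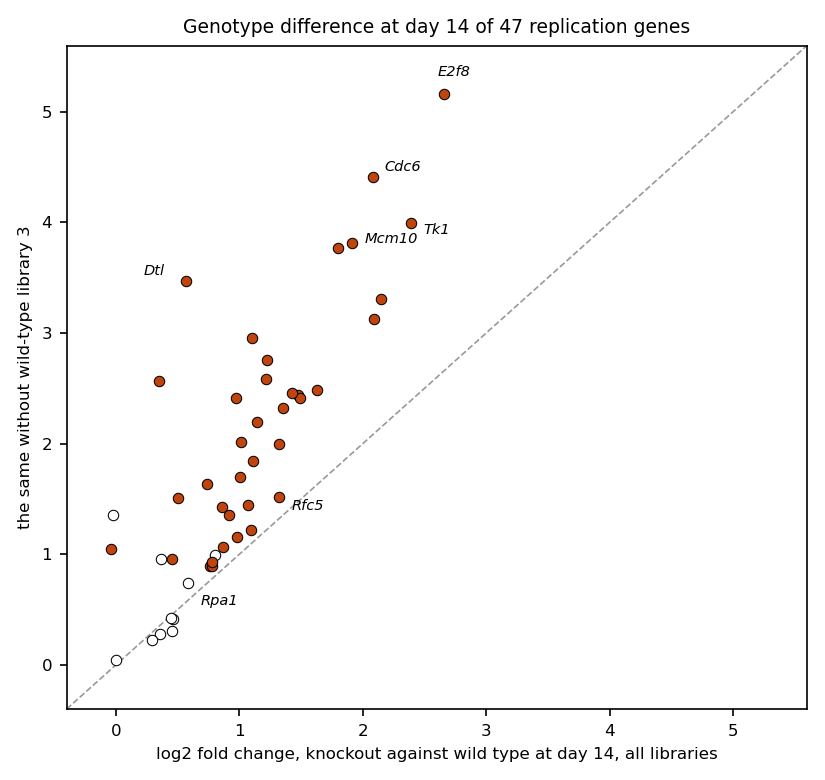
Log2 fold change of knockout against wild type at day 14 for each of the 47 genes, with all libraries (horizontal) and without wild-type library 3 (vertical); filled points passed the adjusted p threshold without it and the dashed line marks equality. Most points lie above the line, with E2f8 moving from 2.66 to 5.16, and Rfc5 lies near it.

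The change between days was compared between genotypes by the interaction term. In the fit of all libraries 0 of the 47 genes were called, beside 0.0604% of all genes tested called higher and 0.0259% lower, while 12 had an unadjusted p under 0.05 (3.46% of all genes tested in that direction), and DESeq2 called 0 (0.526% and 0.88% of all genes). The median difference in log2 fold change was 0.87, against 0.059 over all genes, with the smallest p for Chaf1b (1.21 ± 0.35, adjusted p = 0.254). Without wild-type library 3, 16 genes were called with a larger rise in the knockout and 0 with a smaller one, beside 2.31% and 0.919% of all genes. These calls too are descriptive, as library 3 was left out for its levels of the same genes. They were led by Rrm2 (3.67 ± 0.41, adjusted p = 0.000998), Pole2 (2.27 ± 0.34, adjusted p = 0.00584) and Prim1, the catalytic primase subunit (2.87 ± 0.49, adjusted p = 0.0104). Voom with sample weights called 25 with a larger and 0 with a smaller rise, beside 2.92% and 1.14% of all genes.

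Other genes of replication and the cycle, in lists of the same kind, were described alongside. Of 43 further replication genes 12 were higher and 0 lower at day 14 in the knockout, led by Chtf18, a gene of an alternative clamp loader (4.01 ± 0.49, adjusted p = 0.000148), and the histone chaperone gene Asf1b (2.39 ± 0.37, adjusted p = 0.000705), where 10.5% of all genes were called higher. In wild type 6 were higher and 1 lower, a share near the 13.2% and 7.33% of all genes, and without wild-type library 3 1 was higher and 9 lower (14.4% and 15.7% of all genes). Between genotypes at day 14 Asf1b alone was higher (0.845% of all genes), at 19.7, 22.4 and 48.6 CPM against 54.8, 112 and 181 CPM (1.94 ± 0.40, adjusted p = 0.0319). Its groups do not overlap. Without wild-type library 3, 26 of the 43 were higher and 0 lower in the knockout at day 14 (12.6% and 9.89% of all genes), Asf1b among them (2.46 ± 0.40, adjusted p = 0.00255). Of 26 tested cyclin, CDK and E2F-RB genes 11 rose in the knockout (10.5% of all genes) and 7 in wild type (13.2%) over time, and 0 fell in either (4.92% and 7.33%). Without wild-type library 3, 4 were higher and 3 lower in wild type (14.4% and 15.7% of all genes), and 11 higher and 1 lower in the knockout (13.1% and 7.5%). Between genotypes at day 14 that fit had 9 higher and 0 lower (12.6% and 9.89%). Cdkn1a, an inhibitor of cyclin-dependent kinases, stood at 4.79, 11.4, 26.7 and 21.4 CPM in wild type at day 7 and at 362, 337 and 387 CPM at day 14 (4.496 ± 0.68, adjusted p = 0.000406). Here wild-type library 3 was like libraries 1 and 2. Cdkn2c, another such inhibitor, stood at 9.89, 10.1 and 11.9 CPM in wild type at day 14 and at 35.6, 32.2 and 45.3 CPM in the knockout (1.83 ± 0.22, adjusted p = 0.00144). In that gene too wild-type library 3 matched the other wild-type libraries.

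Genes of the G2 and M phases, which follow S phase, changed with the replication genes but set the libraries apart more sharply. Of 30 such genes 26 were higher and 0 lower at day 14 in the knockout (median 3.48), beside 10.5% and 4.92% of all genes. In wild type 14 were higher and 1 lower (median 2.17), beside 13.2% and 7.33% of all genes. The count in wild type rests on library 3: without it 3 were higher and 5 lower (median 0.14, beside 14.4% and 15.7% of all genes). The anaphase activator gene Cdc20 stood at 25.8, 35.4 and 93.5 CPM in wild type at day 14 and at 172, 239 and 369 CPM in the knockout (2.33 ± 0.44, adjusted p = 0.0209). Cdc20, Plk1 and Cenpa were the 3 called between genotypes at day 14, all higher in the knockout (0.845% of all genes). Without wild-type library 3, 28 of the 30 were higher in the knockout at day 14 and 0 lower (median 3.975, beside 12.6% and 9.89% of all genes), Cdc20 among them (3.09 ± 0.39, adjusted p = 0.000752). As a list, the median deviation from the mean over all libraries was -0.84, -1.03 and 2.22 (log2) in wild type at day 14 and 2.26, 2.51 and 2.76 in the knockout. For the 47 replication genes it was -0.50, -0.32 and 1.23, and 0.31, 1.22 and 1.46. Knockout library 1 was thus close to its group in G2 and M genes and lower in replication genes. At day 7 the G2 and M list lay between -1.28 and -0.11, with knockout library 4 the highest, and the replication list between -0.48 and -0.25.

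**Figure D5:**
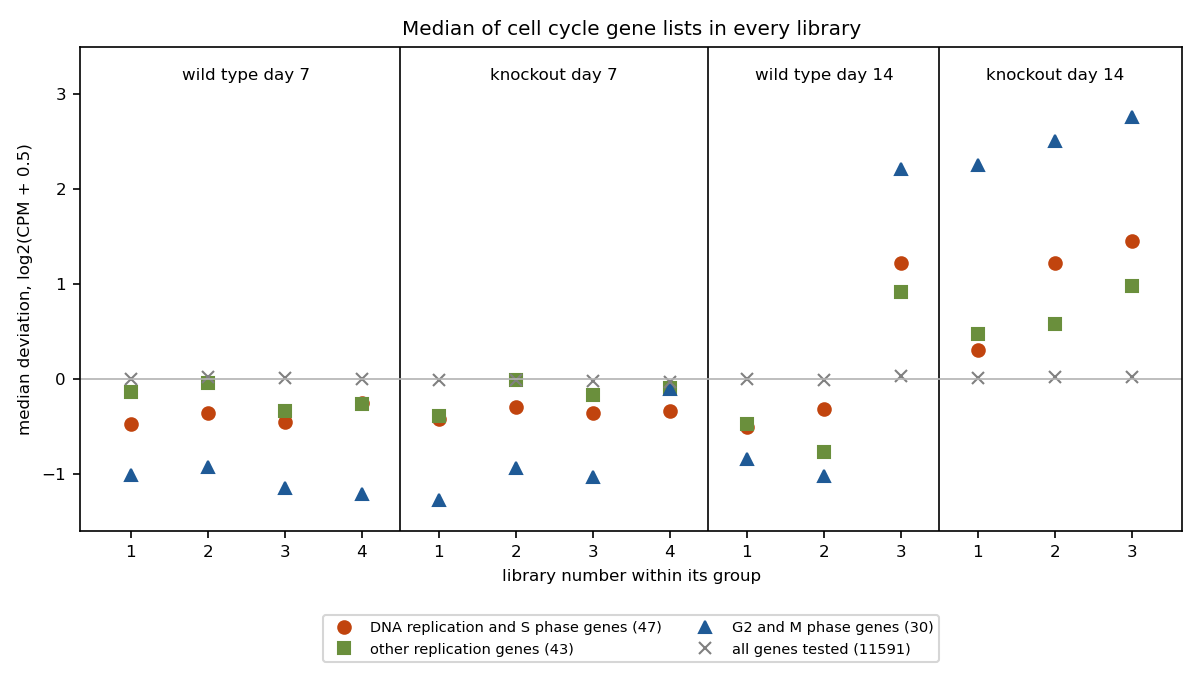
Median deviation of 3 gene lists and of all genes tested in each of the 14 libraries, as log2(CPM + 0.5) minus each gene's mean over the libraries. Wild-type library 3 and all knockout libraries of day 14 lie above 0 in the 3 lists, the G2 and M list reaches 2.76, and all genes tested stay near 0.

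Markers of other cell types were summed beside these results. The 7 mast cell and basophil markers summed to 31.3 to 65.3 CPM in wild type and 48.1 to 82.3 CPM in the knockout at day 7, and to 1.17 to 5.69 CPM and 22.5 to 130 CPM at day 14. Of the 4 tested, only Cpa3 and Kit had a log2 fold change above 0 in the knockout at day 14. Both were called higher and 0 were called lower, beside 0.845% and 0.578% of all genes. The lowest log2 fold change of the 4 was -3.17. Cpa3 was the most abundant, and Ms4a2 and Mcpt8 were at 0 in all libraries. Cpa3 stood at 120.3, 12.9 and 23.8 CPM in the knockout at day 14, so that the library with the lowest replication genes of that group had the most of it. The 10 myeloid and dendritic markers summed to 1.56 to 3.55 and 2.88 to 7.75 CPM at day 7 in wild type and knockout, and to 8.998 to 27.0 and 13.3 to 24.95 CPM at day 14. Adgre1 was the most abundant of them, and Itgax, Itgam, Clec9a, Xcr1 and Flt3 were at 0 in all libraries. Of the 4 tested, 0 were called between genotypes at day 7 (median log2 fold change 1.95). At day 14, 0 were higher and 1 lower in the knockout (median -1.96), beside 0.845% and 0.578% of all genes. Without wild-type library 3, 1 was higher and 1 lower (12.6% and 9.89% of all genes). The 5 NK markers, nearly all Eomes, summed to 2.97 to 6.48 and 1.11 to 2.57 CPM at day 7 and to 22.4 to 42.1 and 10.8 to 40.4 CPM at day 14, with Ncr1 and Klra8 at 0. The 7 B cell markers summed to at most 2.17, 4.21, 0.483 and 0.603 CPM in the 4 groups, with Ebf1 at 0. The 2 CD8 markers, nearly all Cd8b1, summed to 6.67 to 10.2 and 10.5 to 21.0 CPM at day 7 and to 6.32 to 7.92 and 11.4 to 20.6 CPM at day 14. The part of such cells in the changes of the replication genes was not tested.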

How the data were processed

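Total RNA of cultured mouse T cells was sequenced as paired ends in 14 libraries, per the labels' protocols. The authors deposited raw read counts per gene, with RPKM (scaled to gene width and library total) beside them per the file headers; the RPKM values were not used for any result. The submitters' processing notes name GSNAP, an aligner, and the GRCm38 build; the sources used here give no counter, annotation or strand setting. Symbols came from a table of the reference for 22457 of 22598 identifiers.

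Counts were scaled by TMM and filtered by filterByExpr, and 11591 genes were tested with edgeR 4.0.16 (R 4.3.3, robust quasi-likelihood, 1 mean per group over all 14 libraries, called at an adjusted p under 0.05; common biological coefficient of variation 0.354). The interaction is the change over time in the knockout minus that in wild type. An SE is the fold change divided by the square root of the F statistic. The fits were tested on simulated data. Alternatives were DESeq2 1.42.0, limma-voom (limma 3.58.1), other scalings and filters, a replicate block, lane series, a trend on GC content and coding length, and leaving out each library. Fits of voom without weights, and of lane series or the GC trend without wild-type library 3 of day 14, were added after seeing the data. Any of the 47 genes could be named. From each of the other lists up to 4 called genes with the smallest adjusted p per direction and comparison could be named, and from each list of another cell type the most abundant gene. Kit and the markers at 0 were named after their values were seen. The genes, lists and comparisons were chosen with earlier results of these data known. The summed counts of 23326248 to 35803197 per library limit precision mainly for genes below 1 CPM.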

Additional observations from a re-analysis of the deposited data

Results flagged for a closer look

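In 94 checks of a gene within a day 7 group of 4 libraries, 5 found a library whose distance to its nearest neighbour took up more of the range of the group than Dixon's critical value allows; chance gives about 1 in 20. Orc6 in wild-type library 4 stood at 6.23 CPM, against 5.35, 5.27 and 5.27 CPM in libraries 1 to 3. E2f1 in wild-type library 4 stood at 22.1 CPM, against 19.4, 19.7 and 19.4 CPM. Mcm3 in knockout library 1 stood at 328.8 CPM, against 273, 264 and 274 CPM. Slbp in knockout library 1 stood at 79.7 CPM, against 125, 124 and 128 CPM. Cdc6 in knockout library 4 stood at 3.14 CPM, against 0.731, 0.507 and 0.407 CPM; no group of day 14 is large enough for this check.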

How the results depend on the processing

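At day 7 the count of called genes was 0 in the fit reported, 7 under voom with sample weights and 0 to 0 with 1 library left out, and the median was 0.188 with upper quartile factors (a scaling that moves the median of all genes by 0.091) and 0.048 to 0.162 with 1 library left out. Between genotypes at day 14 the count was 1 in the fit reported, and 11 with DESeq2, 37 with sample weights, 4 with voom without weights, 2 with the replicate block, 0 with lane series as a term, 9 with the GC and length trend removed, 16 with that and the replicate block, 0 with only the libraries compared, and 34 with either lane series or the trend removed and without wild-type library 3. With 1 library left out it was 0 to 37, with medians from 0.673 to 1.63. For the interaction it was 25 with sample weights (median 1.49), 4 with lane series and without wild-type library 3 (median 1.56), 11 with the trend removed and without it, and 0 to 16 with 1 library left out (medians 0.609 to 1.38). Over time in wild type it was 5 with lane series, 6 with voom without weights and 8 to 18 with 1 library left out (medians 0.056 to 0.76). In the knockout it was 4 with lane series and 18 to 34 with 1 library left out (medians 1.15 to 1.72). None of the genes called in the fit reported reversed in the settings run, but genes not called there turned in others. Over time in wild type Mcm4, Mcm6, Pole2, Prim1 and Rrm2, above 0 with all libraries, were called lower without wild-type library 3 (-0.92, -0.96, -0.91, -1.16 and -1.13), and Mcm4 and Mcm6 also with sample weights (-0.67 and -0.79). Between genotypes at day 14 Mcm4 turned from -0.04 to 1.05 without that library. With lane series or the GC and length trend in the fit as well, Mcm4, Mcm6, Pole2, Prim1, Rrm2 and Pola1 turned in 1 or both of these comparisons. The cause of these differences was not tested. Deviations of libraries with the same replicate number correlated from -0.456 to 0.417, and those with different numbers from -0.437 to 0.555. Whether the numbers pair some libraries cannot be settled from these ranges. With the replicate block the counts were 0 at day 7, 2 at day 14, 0 for the interaction, 10 over time in wild type and 26 in the knockout. Depth limits statements on genes below 1 CPM, such as Gins1 with 1 to 17 reads per library at day 7.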
